A study of Mus musculus with 45 samples.

Results

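Hepatic uptake carriers of the Slco, Slc10 and Slc22 families were examined across the TCDD dose response. The 8 genes Slc10a1, Slco1b2, Slco1a1, Slco1a4, Slco2b1, Slco2a1, Slco3a1 and Slc22a7 were taken by name from the 39179 genes in the deposited counts, and all 8 were among the 17464 genes with more than 4 reads in any liver. TCDD, the most studied dioxin, is a ligand of the aryl hydrocarbon receptor (AhR), which acts as a transcription factor once bound. The 45 livers came from female C57BL/6 mice in 9 groups of 5, gavaged every 4 days for 28 days with sesame oil vehicle or with TCDD at 1 of 8 doses (0.01 and 0.03 µg/kg, 0.1 and 0.3 µg/kg, 1 and 3 µg/kg, and 10 and 30 µg/kg), starting on postnatal day 28. The labels call the mice ovariectomized and also describe the gavage as daily, whereas the study's methods mention neither and refer to estrous stage. Each mouse was its own library, so p-values measure the spread between mice, and mice are numbered within a group only to name them. Between 11767284 and 56509899 reads per liver fell on genes.

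Hepatocytes take organic solutes from sinusoidal blood through carriers on their basolateral membrane. Slc10a1 encodes NTCP, which draws conjugated bile salts into the cell together with sodium, whereas the Slco genes encode organic anion transporting polypeptides that work without sodium and accept bile salts, bilirubin, steroid and thyroid hormone conjugates and many drugs. Slc22a7 encodes the organic anion carrier OAT2. Carriers of these families are studied in liver because several of them help set how quickly bile salts, hormones and drugs leave the blood. All 8 genes examined here are known chiefly as anion carriers.

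A pair of libraries of the 0.01 µg/kg group stood apart before any carrier was considered. Mouse 2 had 2.93 CPM (reads of a gene scaled to library size) of Xist, the RNA of the inactive X chromosome, against 1112 to 2844 CPM in the other 44 livers, while the Y-linked genes Ddx3y, Eif2s3y, Kdm5d and Uty had 0 reads in all 45. Mouse 5 had 69.7 CPM of Cyp1a1, the standard AhR target, in a group whose median was 1.91 CPM. Where a member's log2 difference between the 0.01 µg/kg group and vehicle or 30 µg/kg is printed, it is therefore given with and without this pair. Tests over all groups, counts of members and likeness over doses include the pair unless stated. Elsewhere Cyp1a1 followed the labels, from a mean of 7.5 CPM in vehicle livers to 828 CPM at 0.1 µg/kg and 7627 CPM at 30 µg/kg. Hepatocyte markers were present throughout, with summed levels of 10 genes between 111800 and 172700 CPM per liver.

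Slco1b2, Slco1a4 and Slco1a1 lie side by side on chromosome 6 (GRCm38) in the order Slco1c1, Slco1b2, Slco1a4, Slco1a1, Slco1a6 and Slco1a5. Slco1b2 spans chr6:141629518-141686646 on the plus strand, Slco1a4 chr6:141805440-141856199 on the minus strand and Slco1a1 chr6:141907282-141946962 on the minus strand. In the same cluster Slco1c1 and Slco1a5 did not pass 4 reads in any liver, and Slco1a6 had 27 reads over all 45. Slc10a1 lies at chr12:80953183-80968705 on the minus strand. RefSeq promoter windows (GRCm38.p6), from 250 bases before to 50 after a transcription start, were held for 6 of the 8 genes as 9 windows. The windows of the 3 cluster genes are shown because these neighbours were all lower at high doses, and that of Slc10a1 because it was, with Slco1b2, one of the abundant members per exon length. They are the windows chr6:141629268-141629567 (plus strand) for Slco1b2, chr6:141856171-141856470 (minus) for Slco1a4, chr6:141946913-141947212 (minus) for Slco1a1 and chr12:80968656-80968955 (minus), the upstream of its pair of starts, for Slc10a1. Each is written 5′ to 3′ in the direction of transcription, with matches to the TATA box TATAAA and the STAT element TTCNNNGAA in capitals on either strand.
Slco1b2: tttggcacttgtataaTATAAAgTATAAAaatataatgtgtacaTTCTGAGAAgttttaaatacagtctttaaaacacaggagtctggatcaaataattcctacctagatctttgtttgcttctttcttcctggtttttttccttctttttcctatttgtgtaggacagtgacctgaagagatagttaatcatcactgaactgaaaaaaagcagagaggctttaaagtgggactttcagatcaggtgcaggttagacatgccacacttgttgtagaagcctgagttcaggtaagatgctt
Slco1a4: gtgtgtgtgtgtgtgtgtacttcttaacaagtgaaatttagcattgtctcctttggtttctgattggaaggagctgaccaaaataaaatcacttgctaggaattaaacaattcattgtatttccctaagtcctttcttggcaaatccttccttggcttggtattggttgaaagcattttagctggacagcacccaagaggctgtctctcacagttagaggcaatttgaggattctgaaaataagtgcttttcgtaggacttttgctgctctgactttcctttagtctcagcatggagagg
Slco1a1: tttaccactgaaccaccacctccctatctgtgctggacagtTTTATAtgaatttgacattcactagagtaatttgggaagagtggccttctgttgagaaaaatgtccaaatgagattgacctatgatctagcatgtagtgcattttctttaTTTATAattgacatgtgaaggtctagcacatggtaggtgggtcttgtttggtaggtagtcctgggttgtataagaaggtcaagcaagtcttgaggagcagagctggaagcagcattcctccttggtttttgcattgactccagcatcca
Slc10a1: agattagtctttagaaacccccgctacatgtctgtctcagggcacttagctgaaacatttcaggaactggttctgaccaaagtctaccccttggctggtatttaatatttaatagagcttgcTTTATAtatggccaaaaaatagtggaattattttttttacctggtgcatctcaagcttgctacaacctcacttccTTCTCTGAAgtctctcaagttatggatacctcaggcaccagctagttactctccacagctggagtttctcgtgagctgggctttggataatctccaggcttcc

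The core GCGTG that AhR and its partner ARNT bind was in none of the 9 member windows on either strand, and in 32.4% of all 32851 RefSeq windows. TATAAA was in 13.6% of all windows and in 4 member windows, at 99 and 209 bases upstream of the Slco1a1 start, 227 and 234 upstream of Slco1b2, 128 upstream of Slc10a1 and 29 upstream of Slco2a1. TTCNNNGAA was in 8.3% of all windows and in 4 member windows, those of Slco1b2 and Slc10a1 and a pair of Slco2b1 windows. Matches were counted on either strand and separately for each motif. Those of TATAAA at Slco1a1 and Slc10a1 were on the reverse strand, and those at Slco1b2 and Slco2a1 on the forward strand. The Slco1a4 window held none of the 3 motifs. These matches describe the letters of short windows and say nothing of binding in these livers.

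Levels are given as trimmed mean of M-values (TMM) normalized CPM, and levels of different genes are compared only per kb of exon (RPKM from the same CPM). In vehicle livers Slc10a1 had 437 ± 50.8 RPKM (mean ± SD, n = 5) and Slco1b2 390 ± 65.6 RPKM. Slco1a4 followed at 54.7 ± 9.85 RPKM and Slco2b1 at 34.3 ± 4.27 RPKM. Slco1a1 had 12.7 ± 13.6 RPKM, Slc22a7 8.09 ± 1.02 RPKM, Slco2a1 3.51 ± 0.442 RPKM and Slco3a1 0.356 ± 0.0827 RPKM. Slc10a1 and Slco1b2 did not differ beyond their spread, nor could Slco1a1 be ranked against Slc22a7 or Slco2a1, since its SD exceeded its mean. Slc10a1 and Slco1b2 together made up most of the summed level, with shares of 46.6% ± 3.72 and 41.3% ± 3.39.

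**Figure D1:**
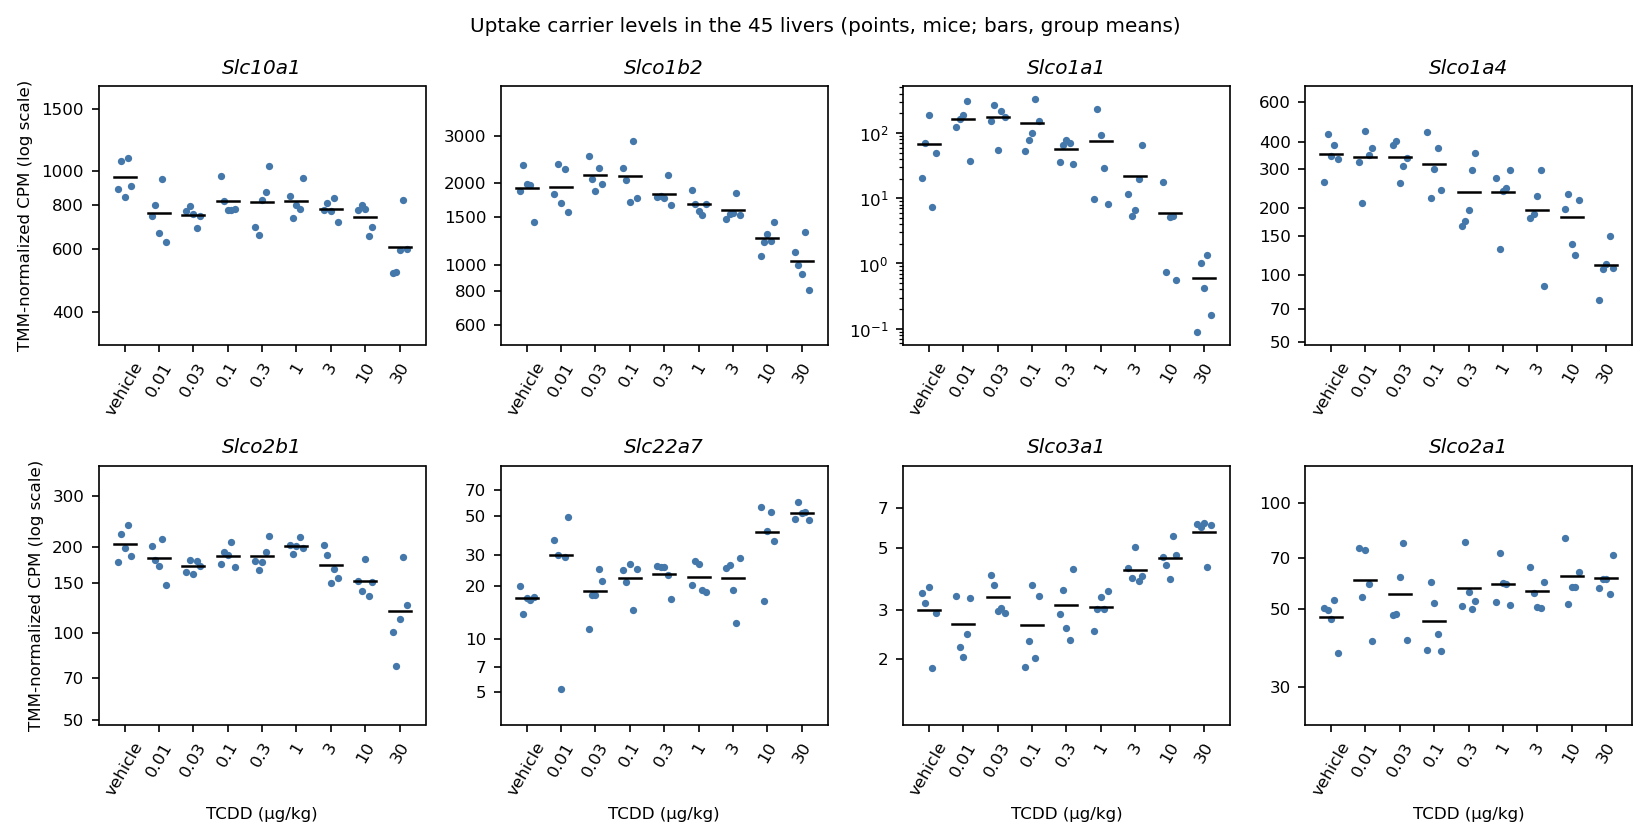
TMM-normalized CPM (log scale, a separate range for each gene) of the 8 carriers in each of the 45 livers by dose of TCDD in µg/kg, with points for mice and bars for group means. Slco1a1 runs from a vehicle mean of 67.1 CPM to 0.608 CPM at 30 µg/kg, and Slc22a7 and Slco3a1 are the genes whose means rise at the top doses and pass the test.

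At 30 µg/kg 7 of the 8 carriers differed from vehicle (edgeR quasi-likelihood F-test, Benjamini-Hochberg adjusted p under 0.05 over all 17464 genes), in a comparison that called 29.6% of all genes. Slco1a1, Slco1a4, Slco1b2, Slco2b1 and Slc10a1 fell, 5 members against 14.1% of all genes called lower. Slc22a7 and Slco3a1 rose, 2 members against 15.5% called higher. Changes of at least 2-fold were called for Slco1a1, Slco1a4 and Slc22a7, 3 members against 11.4% of all genes. For 7 members the 5 livers at 30 µg/kg lay wholly above or below the 5 vehicle livers, as did 19.9% of all genes, and the member whose groups overlapped was Slco2b1. The median log2 fold change was -0.71 over the 8 members and 0.02 over all genes.

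Slco1a1 encodes a carrier of steroid conjugates and bile salts that is known to be higher in male than in female mouse liver. The vehicle livers had 20.2, 70.8, 188, 7.43 and 49.2 CPM, a 25.3-fold range. The livers at 30 µg/kg had 0.0902, 1.03, 0.424, 1.34 and 0.160 CPM, from 2, 18, 12, 24 and 2 reads. Every liver at 30 µg/kg was thus below every vehicle liver despite the spread of the controls. The fitted decrease was 111-fold (log2 fold change -6.80 ± 1.11 SE, 95% CI -9.04 to -4.56, adjusted p = 6.46e-06 by edgeR). The log2 fold change was -5.94 without vehicle mouse 3, the liver with the highest level, and between -7.30 and -5.94 whichever mouse was left out. Only 3 of the 17464 genes had a lower log2 fold change.

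At 10 µg/kg Slco1a1 had 17.8, 0.738, 5.13, 5.31 and 0.562 CPM, and its level fell 11.1-fold against vehicle (log2 fold change -3.47 ± 0.86, adjusted p = 0.00354 by edgeR), with 1 liver of the 5 inside the vehicle range. At 3 µg/kg it had 11.7, 5.26, 6.55, 19.5 and 65.0 CPM and did not pass the test (log2 fold change -1.63 ± 0.79, adjusted p = 0.223). At the lowest doses the means were above vehicle, at 164 ± 98.8 CPM for 0.01 µg/kg, 174 ± 80.4 CPM for 0.03 µg/kg and 143 ± 110 CPM for 0.1 µg/kg. These groups overlapped the vehicle livers and gave log2 differences of 1.29 ± 0.77, 1.37 ± 0.77 and 1.10 ± 0.77, none of which passed the test (adjusted p from 0.488 to 0.914 by edgeR). Without mice 2 and 5 the 0.01 µg/kg difference was 1.62 (adjusted p = 0.544). Means at 0.3 and 1 µg/kg were 56.6 ± 20.8 and 74.3 ± 94.9 CPM.

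Variation between mice was itself a feature of Slco1a1. Its biological coefficient of variation (BCV, the between-mouse spread left after dose) was 0.85, higher than that of 99.8% of the 1184 genes within 0.5 log2 CPM of its mean level. The neighbouring Slco1b2 had a BCV of 0.15, below the median of 0.18 over all genes, and a 1.63-fold range in vehicle livers. Slco1a4 stood between them at 0.27.

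Slco1a4 encodes a carrier that takes up cardiac glycosides and bile salts. In vehicle livers the levels were 263, 433, 344, 384 and 332 CPM and the livers at 30 µg/kg had 77.5, 106, 112, 150 and 108 CPM. The groups did not overlap, and the level fell 3.17-fold (log2 fold change -1.66 ± 0.25, 95% CI -2.18 to -1.15, adjusted p = 1.89e-06 by edgeR). Slco1a4 was also the member called at the lowest dose, 3 µg/kg, where it had 181, 189, 228, 298 and 89.0 CPM (log2 fold change -0.83 ± 0.25, adjusted p = 0.0307). It was the 1 member called there, in a comparison that called 7.54% of all genes, and the call was lost when any of 5 mice was left out (vehicle mice 2 or 4, or 3 µg/kg mice 1, 2 or 5), with adjusted p from 0.0529 to 0.121. Group means were 238 ± 83.0 CPM at 0.3 µg/kg, 237 ± 63.4 CPM at 1 µg/kg and 182 ± 48.3 CPM at 10 µg/kg, the last called at log2 fold change -0.95 ± 0.25 (adjusted p = 0.0062).

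Slco1b2 encodes the main liver carrier for unconjugated bile salts, bilirubin and statins in mice. The 5 control livers had 1865, 2339, 1992, 1972 and 1439 CPM and the livers at 30 µg/kg had 1115, 998, 926, 1317 and 810 CPM. Every treated liver was below every vehicle liver, and the level fell 1.86-fold (log2 fold change -0.90 ± 0.13, 95% CI -1.17 to -0.63, adjusted p = 1.26e-06 by edgeR). At 10 µg/kg it had 1077, 1212, 1298, 1223 and 1445 CPM, with the highest liver just above the lowest vehicle liver (log2 fold change -0.62 ± 0.13, adjusted p = 0.000802). At 3 µg/kg the log2 fold change of -0.28 ± 0.13 did not pass (adjusted p = 0.222).

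Because Slco1a1, Slco1a4 and Slco1b2 are counted in the same livers, their ratios within a liver do not depend on the normalization between livers. The log2 ratio of Slco1a1 to Slco1b2 reads averaged -5.58 ± 1.77 in vehicle livers and -11.22 ± 1.44 at 30 µg/kg. The log2 ratio of Slco1a1 to Slco1a4 reads went from -3.13 ± 1.76 to -7.98 ± 1.27. No liver at 30 µg/kg reached the vehicle range in either ratio. The differences were -5.64 and -4.86 log2 units, each with a 2-sided exact permutation p of 0.00794, the smallest that 5 livers against 5 can give. Slco1a1 and Slco1a4 shared 1.64% and 1.61% of their 50-base windows with 5 other genes, 3 of them Slco1a genes, and reads with several alignments had been left uncounted.

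Slc10a1 was the bile salt carrier with the smallest called decrease. The vehicle livers had 888, 1069, 845, 1089 and 909 CPM and the livers at 30 µg/kg had 515, 517, 597, 826 and 601 CPM. The groups were separate by a narrow margin, between the highest treated and the lowest vehicle liver, and the level fell 1.57-fold (log2 fold change -0.65 ± 0.12, 95% CI -0.89 to -0.42, adjusted p = 3.32e-05 by edgeR). Slc10a1 was below vehicle on average at every dose, and its 5 livers at 0.03 µg/kg (771, 797, 758, 689 and 747 CPM) were all below the vehicle livers, at a dose where 2.79% of all genes had no overlap in either direction. The same held at 3 µg/kg (778, 815, 769, 838 and 717 CPM), where 7.96% of all genes had no overlap. The difference at 0.03 µg/kg did not pass after adjustment (log2 fold change -0.35 ± 0.12, adjusted p = 0.231), nor did those at 3 µg/kg (-0.29 ± 0.12, adjusted p = 0.123) and 0.01 µg/kg (-0.34 ± 0.12, adjusted p = 0.326). Without mice 2 and 5 the last was -0.28 (adjusted p = 0.516). From 0.01 to 3 µg/kg the group means stayed between 752 and 825 CPM, with no order by dose. Set against the 0.03 µg/kg livers in place of vehicle, the decrease at 30 µg/kg was -0.30 (adjusted p = 0.0481).

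Slco2b1 encodes a carrier of steroid sulfates found in many tissues. Levels in vehicle livers were 178, 222, 199, 239 and 185 CPM and the livers at 30 µg/kg had 101, 77.1, 112, 184 and 126 CPM, so 1 treated liver reached the vehicle range. The level fell 1.71-fold (log2 fold change -0.77 ± 0.13, 95% CI -1.04 to -0.50, adjusted p = 1.40e-05 by edgeR). Slco2b1 shares 5.89% of its 50-base windows with 2 other genes and 471 exon bases with the antisense gene Gm15635, and whether reads were counted by strand is not given in the sources used here. Gm15635 itself had 44 reads in all 45 livers.

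Slc22a7 was the member with the largest increase. The vehicle livers had 19.95, 13.9, 17.1, 16.7 and 17.4 CPM and the livers at 30 µg/kg had 47.96, 59.8, 51.8, 52.5 and 47.2 CPM. The groups were far apart, and the level rose 3.05-fold (log2 fold change 1.61 ± 0.30, 95% CI 1.00 to 2.22, adjusted p = 5.64e-05 by edgeR). At 10 µg/kg 4 livers had 36.2 to 56.2 CPM and the fifth, mouse 2, had 16.5 CPM, within the vehicle range (log2 fold change 1.26 ± 0.30, adjusted p = 0.00242). At 0.01 µg/kg 4 livers had 29.3 to 49.0 CPM, above all vehicle livers, and the other had 5.24 CPM, below them all. That group did not pass the test (log2 fold change 0.83 ± 0.30, adjusted p = 0.353), and without mice 2 and 5 the difference was 0.48 (adjusted p = 0.642). Set against the 0.01 µg/kg livers in place of vehicle, the increase at 30 µg/kg was 0.78 (adjusted p = 0.0407), and 1.11 without mice 2 and 5 (adjusted p = 0.0116).

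Slco3a1, a carrier of prostaglandins and thyroxine expressed in many tissues, was the least abundant member. Vehicle livers had 3.47, 3.18, 3.64, 1.86 and 2.93 CPM and the livers at 30 µg/kg had 6.13, 5.95, 6.19, 4.29 and 6.09 CPM, from 76 to 175 reads. The groups did not overlap, and the level rose 1.90-fold (log2 fold change 0.93 ± 0.18, adjusted p = 0.000103 by edgeR). At 3 µg/kg the 5 livers, between 3.80 and 5.05 CPM, were also above the vehicle livers but did not pass after adjustment (log2 fold change 0.48 ± 0.18, adjusted p = 0.0999).

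Slco2a1 encodes the prostaglandin transporter. In the vehicle group the livers had 50.5, 49.6, 46.9, 52.9 and 37.5 CPM and the livers at 30 µg/kg had 57.3, 61.1, 60.7, 55.1 and 71.4 CPM. All treated livers were above all vehicle livers, yet the difference of 0.36 ± 0.16 on the log2 scale did not pass (95% CI 0.05 to 0.68, adjusted p = 0.0767 by edgeR). In a test of any difference among the 9 groups, Slco2a1 was again the member not called (adjusted p = 0.197), and the other 7 were called against 28.8% of all genes. Set against the 0.01 µg/kg livers the difference was 0.02 (adjusted p = 0.953), and without mice 2 and 5 of that group it was -0.19 (adjusted p = 0.428). Slco2a1 passed at 30 µg/kg when scaled by library total (0.58, adjusted p = 0.0059) and when only the 2 groups entered the fit (0.36, adjusted p = 0.0169).

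**Figure D2:**
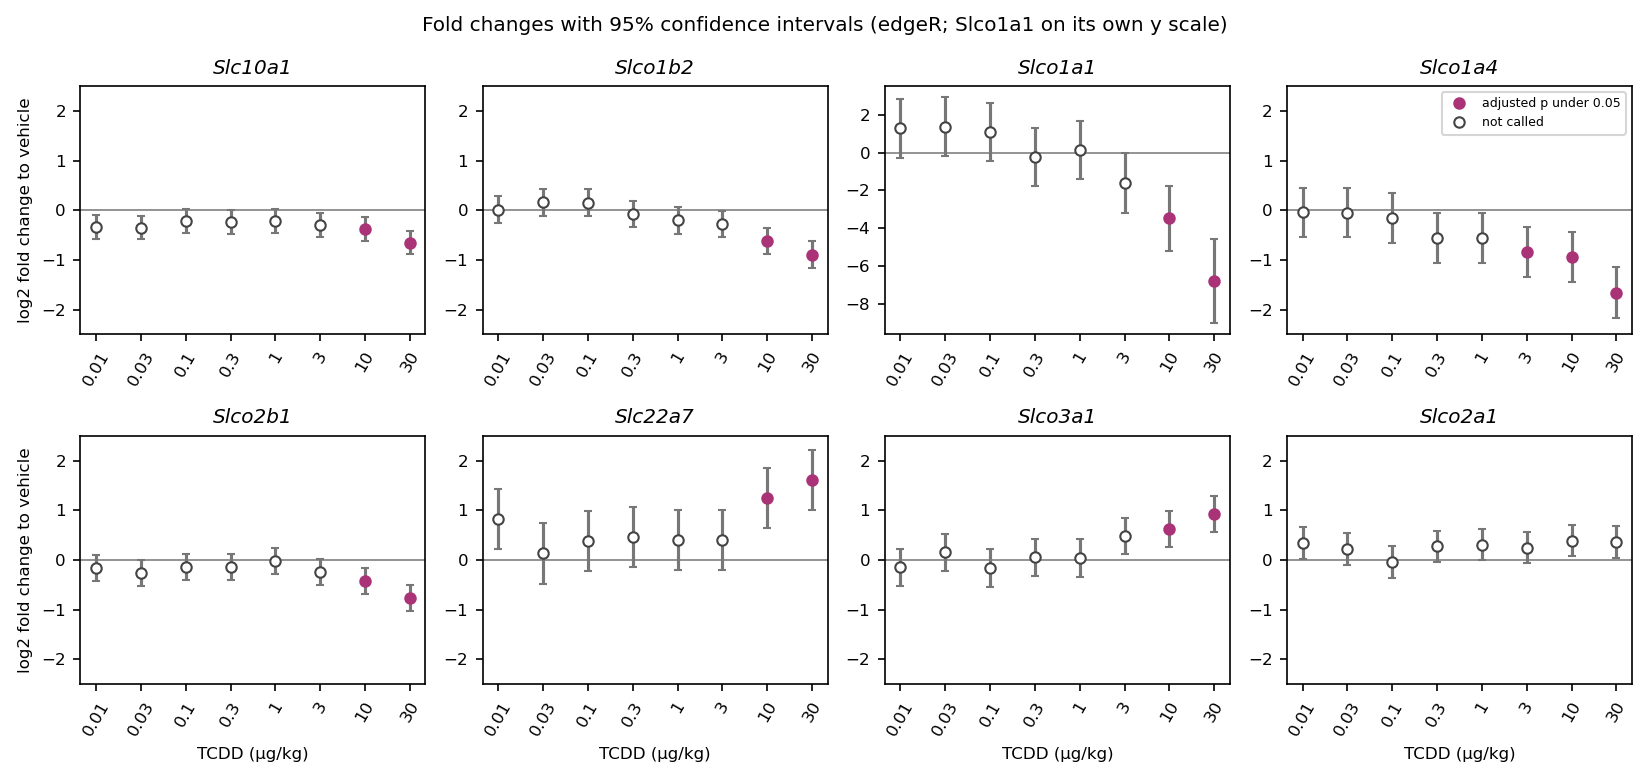
Log2 fold change to vehicle with its 95% confidence interval (edgeR) at each dose of TCDD in µg/kg for the 8 carriers, filled where adjusted p was under 0.05. No member is filled at 1 µg/kg or below, Slco1a4 alone is filled at 3 µg/kg, and 7 members are filled at 10 and 30 µg/kg.

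Across doses, 7 members passed at 10 µg/kg against 15.9% of all genes, the same 7 as at 30 µg/kg and in the same directions, with Slco1a1 and Slc22a7 past 2-fold against 5.55% of all genes. Calls of 3 members at 10 µg/kg rested on single mice. Slc10a1 (log2 fold change -0.37 ± 0.12, adjusted p = 0.0234) lost its call without vehicle mouse 2 or 4 or without 10 µg/kg mouse 4 or 5, Slco2b1 (-0.43 ± 0.13, adjusted p = 0.0195) without vehicle mouse 2 or 4 or 10 µg/kg mouse 4, and Slco3a1 (0.62 ± 0.18, adjusted p = 0.0137) without vehicle mouse 4. Scaled by library total, Slc10a1 (-0.25, adjusted p = 0.0908) and Slco2b1 (-0.30, adjusted p = 0.0775) were not called at 10 µg/kg and Slco2a1 was (0.52, adjusted p = 0.0236). Leaving out vehicle mouse 4 left 4 of the 8 members called. At 10 µg/kg 3 members did not overlap the vehicle livers, as was the case for 14.2% of all genes.

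No member was called by edgeR at any of the 5 doses from 0.01 to 1 µg/kg, nor by the DESeq2 test at these doses. In order of dose, edgeR called 0, 0.0573, 0.0229, 0.464 and 1.76% of all genes there, and 3, 1, 0, 1 and 1 members had an unadjusted p under 0.05. No member was called by edgeR between neighbouring doses from 0.3 to 30 µg/kg either, in comparisons that called 0.115, 0.178, 0.784 and 0.613% of all genes, with 0, 2, 3 and 5 members at an unadjusted p under 0.05. DESeq2 called Slco1a1 from 10 to 30 µg/kg (log2 fold change -3.27, adjusted p = 0.0221).

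The dose at which a member's mean log2 CPM first passed and stayed past 50% of its change at 30 µg/kg was read from the group means. It was 2.28 µg/kg for Slco1a4 and 2.79 µg/kg for Slco3a1, 5.74 µg/kg for Slco1b2, 5.86 µg/kg for Slc10a1 and 6.03 µg/kg for Slc22a7, 7.30 µg/kg for Slco1a1 and 8.94 µg/kg for Slco2b1. Leaving out each mouse in turn gave 1.70 to 5.95 µg/kg for Slco1a4, 2.54 to 4.69 µg/kg for Slco3a1, 4.82 to 6.74 µg/kg for Slco1b2, 3.88 to 10.6 µg/kg for Slc10a1, 5 to 7.05 µg/kg for Slc22a7, 5.98 to 9.91 µg/kg for Slco1a1 and 5.52 to 11.4 µg/kg for Slco2b1. Shifts of over 1.5 times came from single mice, to 5.95 µg/kg for Slco1a4 without 3 µg/kg mouse 5, to 4.69 µg/kg for Slco3a1 without vehicle mouse 4 and to 5.52 µg/kg for Slco2b1 without 30 µg/kg mouse 2. For Slc10a1 the dose became 10.3 µg/kg without 10 µg/kg mouse 4, and 3.88 or 10.6 µg/kg without 30 µg/kg mouse 1 or 4. Its log2 fold changes by edgeR at 0.01 and 0.03 µg/kg were -0.34 and -0.35, already past 50% of the -0.65 at 30 µg/kg. Without mice 2 and 5 the value at 0.01 µg/kg was -0.28, short of 50% of that -0.65. The Slc10a1 changes from 0.1 to 3 µg/kg were also short of it, so the rule of staying past set the later dose. The order of the members by dose of 50% change was not tested.

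The summed level of the 8 carriers fell from 940 ± 111 RPKM in vehicle livers to 555 ± 96.7 RPKM at 30 µg/kg, a 1.70-fold decrease (2-sided exact permutation p = 0.00794, the smallest possible). All livers at 30 µg/kg (501 to 727 RPKM) were below all vehicle livers (809 to 1090 RPKM). These are sums with TMM, and the sum was not computed with libraries scaled to hepatocyte markers. On that scale, given below, Slc10a1 and Slco1b2, which make up most of the sum, were not called. The composition at 30 µg/kg was 49.9% ± 3.71 Slc10a1 and 37.9% ± 4.31 Slco1b2. The share of Slco1a4 was 5.81% ± 0.658 in vehicle and 3.11% ± 0.435 at 30 µg/kg, that of Slco1a1 1.37% ± 1.47 and 0.0197% ± 0.0164, and that of Slc22a7 0.878% ± 0.192 and 4.54% ± 0.801. The share of Slco2b1 was 3.66% ± 0.247 in vehicle and 3.58% ± 0.687 at 30 µg/kg, where it overlapped that of Slc22a7.

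**Figure D3:**
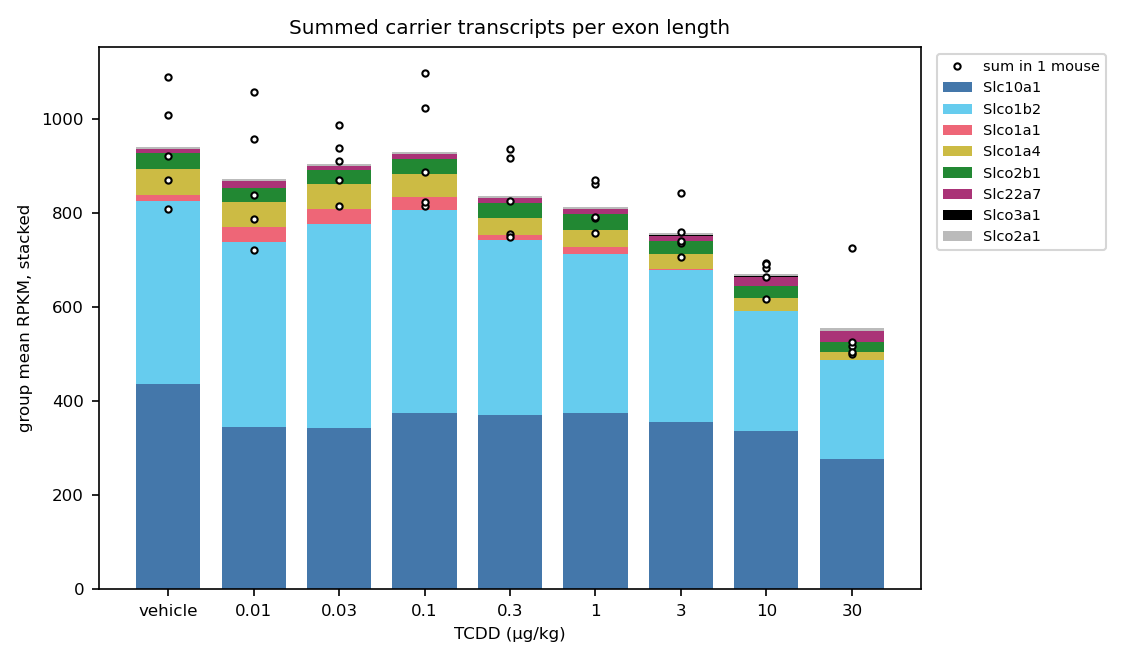
Group mean RPKM of the 8 carriers stacked by dose of TCDD in µg/kg, with open points for the sum in each mouse. Slc10a1 and Slco1b2 fill most of every bar, and the stack goes from 940 RPKM in vehicle to 555 RPKM at 30 µg/kg.

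The livers at 30 µg/kg lay at different distances from vehicle, and whether they differed in response to TCDD was not tested. Mouse 4 was the liver nearest to vehicle for 7 of the 8 members, all but Slc22a7, with the highest level of the members that fell and the lowest of Slco3a1 and Slco2a1. Its Slc10a1 level of 826 CPM and Slco2b1 level of 184 CPM were close to or within the vehicle range. The same liver had the highest Cyp1a1 level of its group, 9064 CPM, and the lowest summed endothelial (208 CPM), macrophage (142 CPM), stellate and fibroblast (531 CPM) and lymphocyte markers (15.2 CPM). Without mouse 4 the 7 calls stood, with log2 fold changes of -7.30 for Slco1a1, -1.01 for Slco1b2, -0.99 for Slco2b1 and -0.80 for Slc10a1, and Slco2b1 (-0.55, adjusted p = 0.00397) and Slc10a1 (-0.42, adjusted p = 0.0446) were then also called from 10 to 30 µg/kg.

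**Figure D4:**
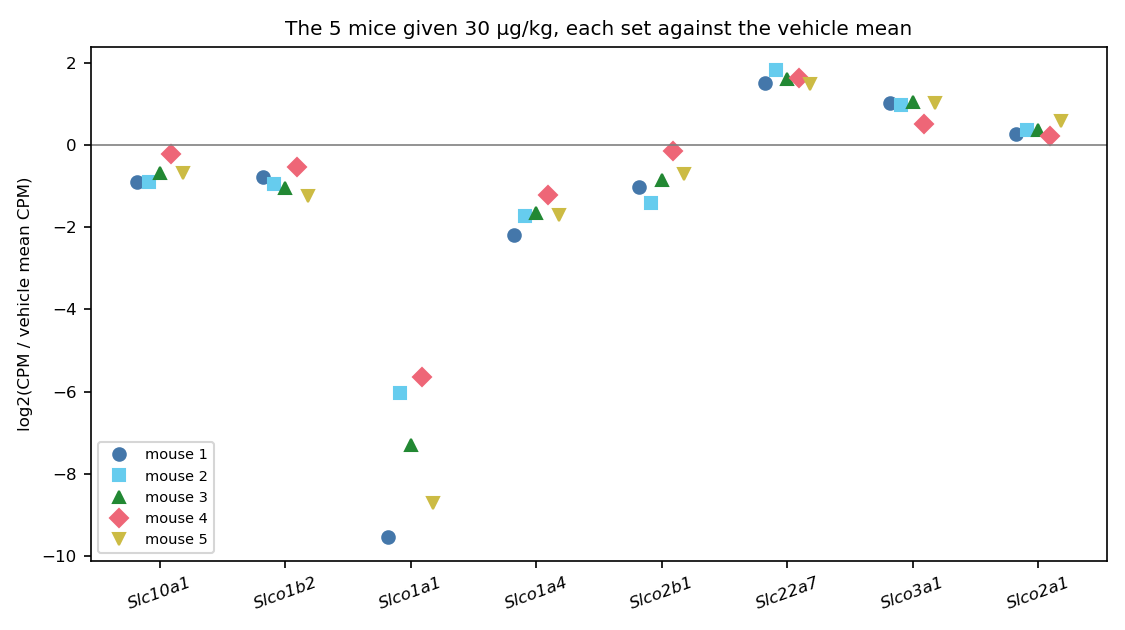
Log2 of each liver's CPM at 30 µg/kg over the vehicle mean CPM for the 8 carriers, with a symbol for each of the 5 mice. Mouse 4 lies nearest to 0 for 7 genes, and the 5 livers lie close together for Slc22a7.

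Transcripts of other cells and of hepatocytes moved over the same doses. In bulk liver fewer cells of a type and less RNA per cell cannot be told apart. Of 10 hepatocyte markers, 5 were lower at 30 µg/kg (Apoa1, Cps1, Fgb, Apoa2 and Ttr) and 0 higher, with a summed level of 147500 ± 13200 CPM in vehicle and 127800 ± 22050 CPM at 30 µg/kg. Alb, which was not called, made up most of both sums, with means of 111500 CPM in vehicle and 105500 CPM at 30 µg/kg. The sum therefore says little of the other markers. Of 9 endothelial markers 6 were higher (summed level 176 to 226 CPM in vehicle, 208 to 332 CPM at 30 µg/kg). Of 8 stellate and fibroblast markers 5 were higher (278 to 394 and 531 to 771 CPM), of 8 macrophage markers 2 (160 to 256 and 142 to 430 CPM), of 6 lymphocyte markers 3 (8.20 to 14.7 and 15.2 to 31.7 CPM) and of 6 cholangiocyte markers 0 (52.1 to 77.8 and 53.3 to 70.3 CPM). No marker was at 0 in all mice of a group. The part of these changes in the carrier levels was not tested beyond the scaling that follows.

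Scaling libraries to the summed reads of the hepatocyte markers other than Alb, of which 5 had themselves fallen, shifted all genes upward at 30 µg/kg. It moved the median log2 fold change of all genes to 0.74, and scaling by library total moved it to 0.23, against 0.02 with TMM. The members shifted by like amounts, to -6.11 for Slco1a1 (adjusted p = 5.16e-06), -0.97 for Slco1a4 (adjusted p = 0.000951), -0.17 for Slco1b2 (adjusted p = 0.365), -0.10 for Slco2b1 (adjusted p = 0.533) and 0.04 for Slc10a1 (adjusted p = 0.769). Slco2a1 was at 1.09, Slco3a1 at 1.66 and Slc22a7 at 2.34. Scaling moves all genes by like amounts, so members below the all-gene median with TMM could hardly leave that side of it. Their place below the median is therefore no check of the 5 members that fell with TMM. The sign of a small change can depend on the scaling chosen, as it did here for Slc10a1 alone. Slco1b2 and Slco2b1 kept their sign under hepatocyte markers but were not called. By library total all 8 members were called in unchanged directions. Over all genes 1222 were called lower and 4996 higher by library total, 357 and 11734 by hepatocyte markers, and 2467 and 2700 with TMM.

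**Figure D5:**
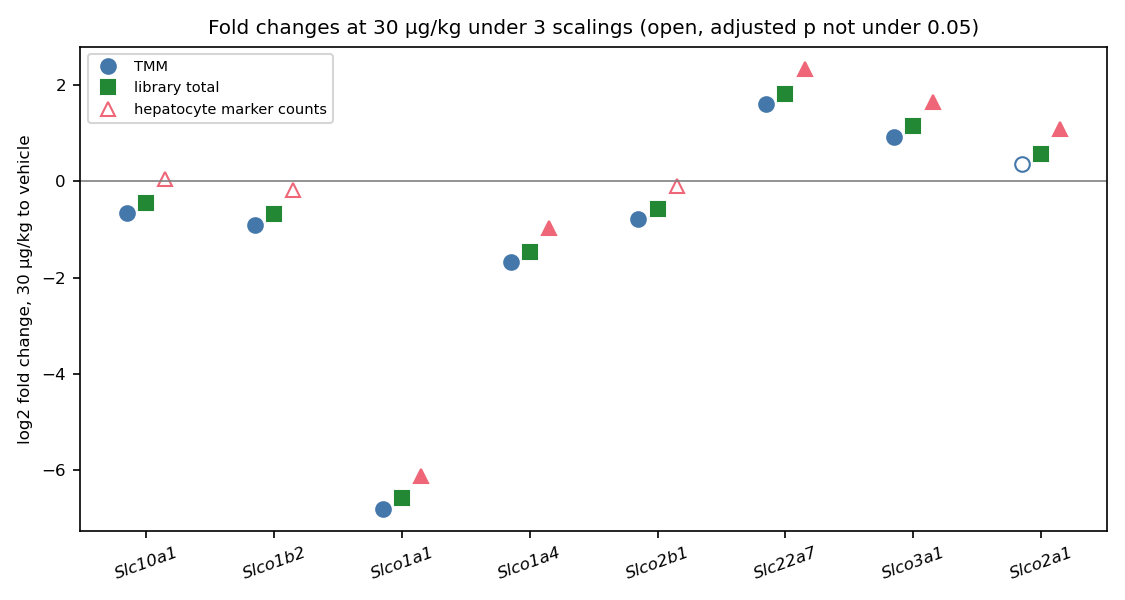
Log2 fold change at 30 µg/kg for the 8 carriers with libraries scaled by TMM, by library total and by hepatocyte marker reads, open where adjusted p was not under 0.05. The hepatocyte marker scaling moves all 8 carriers upward together, as it moves the median of all genes from 0.02 to 0.74, and Slc10a1 is then at 0.04.

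Of 27 other Slco, Slc10a and Slc22a genes detected, 4 were lower and 5 higher at 30 µg/kg (median log2 fold change 0.15), a share near that of all genes. In this comparison 14.1% of all genes were called lower and 15.5% higher, and the lists that follow stand beside the same shares. Slc22a26 fell from 201 ± 59.98 to 50.2 ± 19.5 CPM (log2 fold change -1.999 ± 0.30, adjusted p = 1.07e-06 by edgeR). The other 2 with the largest fitted changes were near 0, Slc22a12 with 0 reads over the vehicle livers and 17 over the livers at 30 µg/kg, and Slco5a1 with 1 and 13 reads.

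Exporters complete the route of these solutes through the hepatocyte. Of 13 tested, 4 were lower and 2 higher at 30 µg/kg (median log2 fold change -0.26). Abcc4, the basolateral exporter of bile salts and conjugates, rose from 4.55 ± 1.27 to 18.4 ± 7.64 CPM (log2 fold change 2.01 ± 0.35, adjusted p = 1.62e-05 by edgeR). Abcb1a, a drug exporter of the canalicular membrane, fell from 18.2 ± 5.75 to 6.89 ± 0.403 CPM (-1.40 ± 0.33, adjusted p = 0.00118), and Slc47a1, which extrudes organic cations, fell from 202 ± 29.7 to 139 ± 34.8 CPM (-0.53 ± 0.14, adjusted p = 0.00396).

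Of 22 transcription factors known for hepatic carrier genes, AhR and its partner among them, 3 were lower and 1 higher at 30 µg/kg (median log2 fold change -0.12). Nfe2l2, the factor of the oxidative stress response, rose from 86.4 ± 5.81 to 204 ± 25.5 CPM (log2 fold change 1.24 ± 0.09, adjusted p = 3.51e-14 by edgeR). Cebpa, a factor of differentiated hepatocytes, fell from 235 ± 41.3 to 126 ± 17.5 CPM (-0.90 ± 0.16, adjusted p = 1.90e-05) and Foxa3 from 30.4 ± 9.16 to 16.7 ± 2.73 CPM (-0.87 ± 0.27, adjusted p = 0.0136). Hnf4a and Nr1h4 had log2 differences of 0.12 ± 0.14 and -0.31 ± 0.16 that did not pass.

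Genes known for a sex difference in mouse liver were examined because Slco1a1 is among them. Of 10 male-predominant genes, 4 were lower and 1 higher at 30 µg/kg (median log2 fold change -0.53), and of 13 female-predominant genes 6 were lower and 1 higher (median -1.06). Among the former Hsd3b5, Susd4 and Elovl3 had log2 fold changes of -4.86 ± 1.68, -4.16 ± 0.39 and -3.09 ± 0.75, all from vehicle means below 4 CPM. Among the latter the sulfotransferase Sult3a1 fell from 128 ± 36.02 to 2.35 ± 3.42 CPM (-5.76 ± 0.54, adjusted p = 2.22e-11 by edgeR), and Cyp3a41a had a log2 fold change of -2.34 ± 0.76.

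The genes most like each strongly changed member over the 8 doses were sought among 13609 genes with a mean of at least 10 reads, by the root mean square difference of the 8 log2 fold changes. All 8 share the vehicle livers. For Slco1a1 these were Sult3a2 (0.74 log2 units), Hao1 (0.81), which encodes a peroxisomal glycolate oxidase and went from 273 to 2.30 mean CPM, and Gm2788 (0.88). For Slco1a4 they were Rarres2 (0.13), Tcea3 (0.13) and the sterol enzyme gene Sc5d (0.14). For Slc22a7 they were Mgat4a (0.18), Cldn14 (0.23) and Kazn (0.23). No other member was among the nearest, and Slco1a4 ranked 163 by likeness to Slco1a1. Of the genes nearest to Slco1a1, Sult3a2 had low levels, with means of 1.9 CPM in vehicle and 0.0111 CPM at 30 µg/kg. Gm2788 went from 10.0 to 0.331 mean CPM. Mgat4a and Kazn, near Slc22a7, also had low levels, with vehicle means of 1.16 and 0.80 CPM.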

How the data were processed

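Total RNA from each liver was made into libraries and sequenced by the authors, who aligned 50-base reads to GRCm38 (TopHat 1.4.1) and deposited raw read counts per Ensembl gene (HTSeq 0.6.1, per the labels) with no normalization. The rows naming no gene, mostly reads aligned to several places, held 45.27 to 60.95% of each table and were left out, so genes with close copies are undercounted. Symbols came from GENCODE M21. Genes with more than 4 reads in any mouse were tested with edgeR 4.0.16 (TMM, quasi-likelihood F-test, all 45 mice in 1 fit, Benjamini-Hochberg within a comparison), after the code was tested on simulated data. Alternatives used DESeq2 1.42.0, other scalings, filters and left-out mice. Ratios used reads plus 0.5 and exact permutation (scipy 1.17.1). Members and gene lists were chosen with earlier results of these data known. Named genes were the members, up to 3 genes per list with the largest called change at 30 µg/kg, the 3 genes most like each member changed at least 2-fold, and the AhR targets; genes of the markers, of the Xist check and factors that were not called were named after their values were seen. Some genes of the lists are counted but not reported here by name. Replicate mice differed beyond counting noise in all 90 pairs within groups (chi-square per degree of freedom at least 13.7). The labels give neither sequencing batches nor the pools the methods mention, so no comparison within batches was made.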

Additional observations from a re-analysis of the deposited data

Results flagged for a closer look

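In 7 of the 72 groups of 5 livers examined over the 8 carriers, 1 liver stood apart from the other 4 by more than Dixon's limit. Chance flags about 1 in 20 such groups where values are normally distributed. Here CPM were used without logs and the 8 carriers share the same livers, so 7 of 72 cannot be set against that rate. Slco1a1 had a highest liver of 65.04 CPM at 3 µg/kg, where the next had 19.5 CPM, and of 17.79 CPM at 10 µg/kg, where the next had 5.31 CPM. Slco1b2 had a highest liver of 1838 CPM at 3 µg/kg against 1482 to 1553 CPM in the others. Slco2a1 had a highest liver of 77.66 CPM at 0.3 µg/kg against 49.99 to 55.8 CPM. Slc10a1 had a highest liver of 966 CPM at 0.1 µg/kg against 777 to 823 CPM. At 30 µg/kg the highest Slc10a1 level, 826 CPM, and the lowest Slco3a1 level, 4.29 CPM, were both those of mouse 4, the liver nearest to vehicle for 7 of the 8 members.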

How the results depend on the processing

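Over settings other than left-out mice, a count of members called was taken as stable within 1.5 times, an exact test if its call held, and a dose of 50% change within its jackknife error, which held for 100 of 102 values. The exceptions were 2 members called at 3 µg/kg when scaled by library total, with Slco3a1 (0.57, adjusted p = 0.0497) joining Slco1a4, and 1 member called from 10 to 30 µg/kg by DESeq2. The summed level was not run under scaling to hepatocyte markers. Counts within 1.5 times still changed, at 10 µg/kg from 7 to 6 by library total and 8 with only the groups compared, and at 30 µg/kg from 7 to 8 by either of these and to 5 under scaling to hepatocyte markers, where Slco1b2, Slco2b1 and Slc10a1 were not called and Slco2a1 was. Leaving out each mouse in turn gave 0 to 1 members at 3 µg/kg, 4 to 7 at 10 µg/kg and 0 to 2 from 10 to 30 µg/kg. At 30 µg/kg 7 members were called whichever of the 10 mice was left out. For single members at 30 µg/kg, the sign reversed for Slc10a1 (0.042) under scaling to hepatocyte markers, which shifts all genes upward, and for Slco2a1 (-0.191, not called in either) against the 0.01 µg/kg livers without mice 2 and 5. Both settings were chosen after seeing the data, as were the 0.01 and 0.03 µg/kg reference groups and the removal of mice 2 and 5. Over all genes at 30 µg/kg scaling to hepatocyte markers called 12091 against 5167 with TMM. Counts over all genes also moved by over 1.5 times at doses where few were called. At 0.01 µg/kg 0 genes were called by edgeR, against 35 with DESeq2, 6 with only the groups compared, 3 with DESeq2's size factors, library totals or filterByExpr, and 1 without mice 2 and 5. At 0.03 µg/kg 10 became 78 with DESeq2 and 2 with library totals, with no filter or with only the groups compared. At 0.3 µg/kg 81 became 141 with DESeq2 and 44 with only the groups compared. Between neighbouring doses, 20 became 32 with DESeq2 from 0.3 to 1 µg/kg, and with only the groups compared 20 became 6 there, 31 became 20 from 1 to 3 µg/kg and 107 became 68 from 10 to 30 µg/kg. The cause was not tested for any of these. No paired analysis was possible because the labels give no replicate number shared between groups. The 2 reads of Slco1a1 in the lowest livers limit the precision of its fold change at 30 µg/kg.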
